A study of Mus musculus with 2 samples.

Results

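The transcription factor genes Gata2, Gata3, Gata4 and Gata6 were followed by symbol through the single-cell RNA counts of mouse embryoids and blastocysts. They are 4 of the 22802 genes with a count in either library, and all 4 were detected in both. The embryoid library came from aggregates of ES cells derived from the Lifeact-RFPRuby mouse strain and XTE cells, a line reprogrammed from ES cells that carry a Gata6-H2B:Venus reporter and meant as the trophectoderm side of the aggregate. Seeding used 10000 of the ES cells with 50000 to 80000 of the XTE line, by the labels, with aggregation for 48 h and another 48 h in repellent plates. The XTE medium held the GSK3 inhibitor CHIR99021 (3 μM) and the growth factors Activin (20 ng/ml), Fgf4 (25 ng/ml, with 1 μg/ml of heparin) and BMP4 (50 ng/ml). The blastocyst library came from whole B6C3F1 embryos of embryonic day 4.5, with no treatment named. Each library was made from 6000 dissociated cells, and nothing in the labels tells how many embryoids or embryos were pooled.

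GATA factors are zinc finger proteins that bind DNA at the core letters GATA. In the mouse blastocyst Gata2 and Gata3 belong to the regulatory network of the trophectoderm, the outer epithelium that founds the placenta, where Gata3 acts beside Cdx2. Gata6 is required for the primitive endoderm, the layer that founds the yolk sac epithelia, and Gata4 follows it there as the fate is fixed, while the epiblast, the source of the embryo proper, shuts both off. Forced expression of Gata4 or Gata6 converts ES cells to an extraembryonic endoderm state, so the 4 genes serve as readouts of which extraembryonic fate a cell has taken.

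The filters kept 5328 of 5546 barcodes in the embryoid, with a median of 4768.5 unique molecular identifiers (UMIs) a cell, and 1080 of 1288 in the blastocyst, with 9273. Each library was clustered without any Gata gene, and clusters were named from markers that include no Gata gene, so the levels below did not enter the naming. The embryoid gave 3880 primitive endoderm-like (PrE-like) cells in 7 clusters, 107 epiblast-like (EPI-like) cells and 111 cells with fibroblast or mesenchymal markers (FIB-like). The blastocyst gave 376 trophectoderm-like (TE-like), 447 PrE-like and 257 EPI-like cells. A further 1230 embryoid cells in 3 clusters stayed unnamed, and no embryoid cluster was TE-like, against the label of the XTE cells. Embryoid PrE-like cells had 17 of 17 PrE markers and 6 of 17 TE markers at a level of 20 CPM or more (CPM is the count of a gene per 1e+06 counts of its group). The doublet caller marked 0 embryoid barcodes, so it did not work there, and 17 blastocyst barcodes, which were removed; 9 barcode sequences occur in both libraries. With 1 library per group no test across replicates was possible, library and sample type cannot be told apart, and the 95% intervals cover counting error only.

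The promoters of the trophectoderm pair are shown because these 2 genes are high in the same blastocyst cells. The windows run from 250 bases before to 50 bases after an annotated start and come from RefSeq (GRCm38.p6). Gata3 lies on the minus strand, here chr2:9878551-9878850, and Gata2 on the plus strand, with windows at chr6:88193641-88193940 and chr6:88198414-88198713 for 2 annotated starts. Capitals mark matches, on either strand, to the motifs of GATA factors (AGATAA or AGATAG, else TGATAA or TGATAG), TEAD factors (GGAATG), CDX factors (TTTATNG or TTTACNG) and AP-2 factors (GCCNNNGGC).
Gata3: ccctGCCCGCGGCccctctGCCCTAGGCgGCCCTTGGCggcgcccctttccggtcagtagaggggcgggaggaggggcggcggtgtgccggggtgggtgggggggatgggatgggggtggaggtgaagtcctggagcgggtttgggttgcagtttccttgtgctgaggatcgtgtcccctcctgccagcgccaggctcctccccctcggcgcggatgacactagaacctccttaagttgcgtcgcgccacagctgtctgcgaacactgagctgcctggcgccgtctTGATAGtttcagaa
Gata2 upstream start: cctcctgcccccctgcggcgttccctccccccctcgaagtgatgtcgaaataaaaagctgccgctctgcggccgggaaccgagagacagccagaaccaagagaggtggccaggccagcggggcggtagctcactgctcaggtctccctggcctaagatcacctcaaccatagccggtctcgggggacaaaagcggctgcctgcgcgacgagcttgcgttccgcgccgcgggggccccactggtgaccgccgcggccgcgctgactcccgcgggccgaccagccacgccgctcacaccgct
Gata2 downstream start: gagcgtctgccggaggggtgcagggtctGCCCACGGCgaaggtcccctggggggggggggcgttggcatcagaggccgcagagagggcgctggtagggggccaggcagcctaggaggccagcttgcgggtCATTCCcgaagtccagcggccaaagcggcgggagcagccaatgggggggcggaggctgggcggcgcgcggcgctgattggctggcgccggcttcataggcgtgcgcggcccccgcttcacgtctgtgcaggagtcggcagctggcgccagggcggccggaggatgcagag
The Gata3 window held 1 GATA match and 3 AP-2 matches. The upstream Gata2 window held none of the 4 motifs, and the downstream one held 1 TEAD and 1 AP-2 match. Among 32851 RefSeq promoter windows of this length, 29.8% held a GATA, 14.7% a TEAD, 18.8% a CDX and 16.6% an AP-2 match. A window with at least 1 match to such a motif is thus frequent. The share of windows with 3 AP-2 matches, as in Gata3, was not counted. The windows of Gata4 and Gata6 are not printed.

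Trophectoderm-like cells were the Gata2 and Gata3 cells of these data. Gata2 stood at 383 CPM (95% interval 363 to 404; 1373 UMIs) in blastocyst TE-like cells, against 2.18 CPM (0.998 to 4.14; 9 UMIs) in PrE-like and 10.7 CPM (7.08 to 15.4; 28 UMIs) in EPI-like cells. Gata3 stood at 698 CPM (671 to 725; 2502 UMIs) in TE-like cells, against 6.55 CPM (4.32 to 9.53; 27 UMIs) in PrE-like and 9.13 CPM (5.85 to 13.6; 24 UMIs) in EPI-like cells. Neither gene had an interval in TE-like cells that came near those of the other lineages. On a log2 scale with 1 CPM added, the ratio of TE-like over PrE-like cells was 6.91 for Gata2 (interval of the count ratio 6.53 to 8.59) and 6.53 for Gata3 (6.19 to 7.34). Intervals here leave out the added CPM, which understates ratios of scarce genes. Gata2 and Gata3 passed 2-fold upward and Gata4 and Gata6 downward in TE-like against PrE-like cells, where 11.7% of the 8766 genes at 10 CPM or more in either profile were higher and 21.8% lower. TE-like ratios carried an offset: with scaling by the median of ratios every log2 ratio of TE-like over PrE-like cells was 0.28 higher, with 14.9% of genes then higher and 15.2% lower, and every log2 ratio of embryoid PrE-like over TE-like cells was 0.21 lower. No GATA gene changed direction by it.

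**Figure D1:**
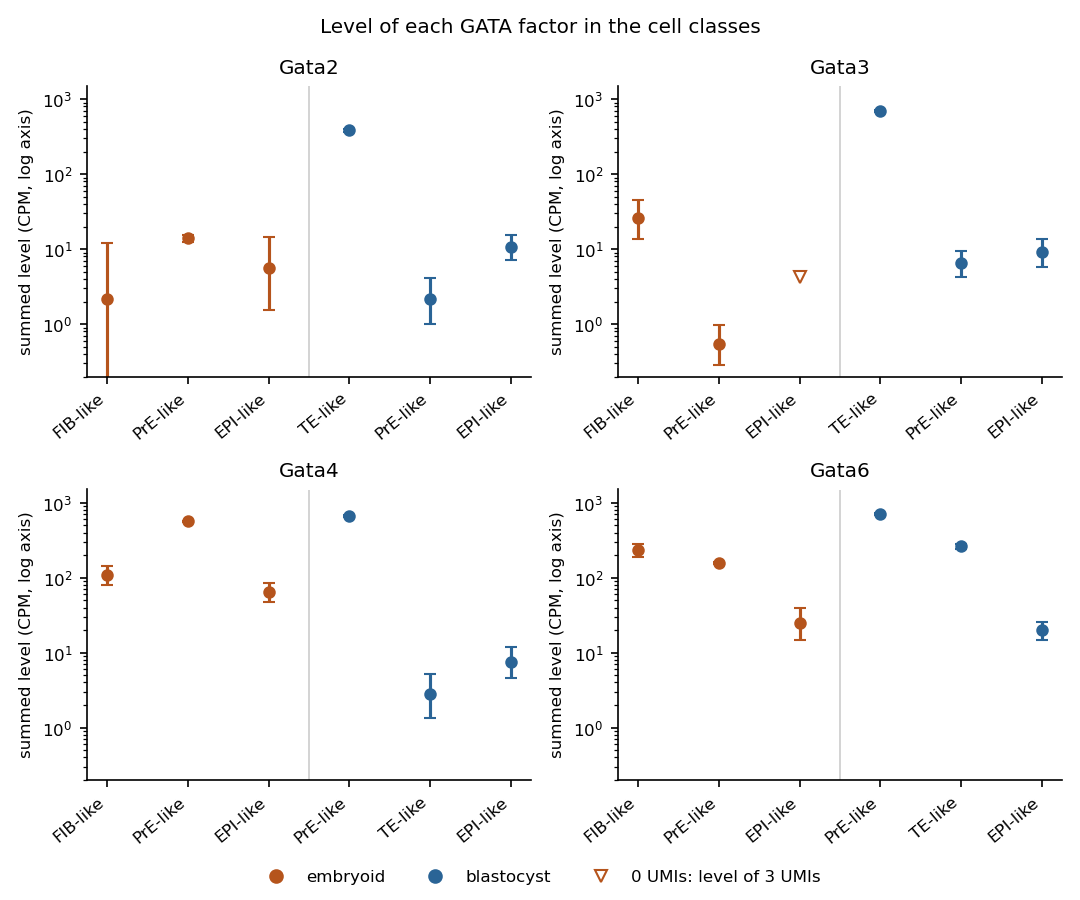
Summed level of each GATA gene (CPM, logarithmic axis) in the embryoid classes (left of the line, orange) and the blastocyst classes (right, blue), with exact Poisson 95% intervals; the open triangle is the level of 3 UMIs where 0 were counted. Gata2 and Gata3 peaked in blastocyst TE-like cells at 383 and 698 CPM, Gata4 was at 565 CPM in embryoid and 669 CPM in blastocyst PrE-like cells, and Gata6 was at 156 CPM in embryoid PrE-like cells, against 705 CPM in blastocyst PrE-like cells.

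Most single TE-like cells held transcripts of both. Before any thinning, 84.3% of TE-like cells had a Gata2 UMI and 95.7% a Gata3 UMI, at a median of 8605.5 UMIs a cell. To compare cells at 1 depth, each was thinned to 3000 UMIs, which left out 29 of 376 TE-like, 75 of 447 PrE-like and 22 of 257 EPI-like cells. Over 20 thinning draws Gata2 was then detected in a median of 61.0% of TE-like cells (57.6 to 65.7 over the draws), against 0.403% of PrE-like cells (0 to 1.08), which should lack it, and 2.98% of EPI-like cells (2.13 to 4.68). Gata3 was detected in 82.1% of TE-like cells (79.8 to 84.7), against 1.88% of PrE-like cells (1.08 to 2.96) and 2.55% of EPI-like cells (1.28 to 4.26). Gata2 and Gata3 were detected together in 54.8% of TE-like cells in the first draw (49.4 to 60.1), and in 49.6% to 55.6% over all draws. Gata3 was found in a median of 85.4% of the TE-like cells with Gata2 and in 78.0% of those without it, higher with Gata2 in 20 of 20 draws. Here and below, the draws thin the same cells, so the number that are higher covers thinning only and not counting error. TE-like cells also pool clusters that differ in the level of both genes, given below. Across the 347 thinned TE-like cells the 2 counts had a Pearson correlation of 0.20, a weak one in sparse counts.

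Gata6, the primitive endoderm factor, was also present in trophectoderm, and Gata4 was not. Gata6 stood at 705 CPM (680 to 731; 2908 UMIs) in blastocyst PrE-like cells, against 261 CPM (244 to 278; 935 UMIs) in TE-like cells, a log2 ratio of 1.43 (1.33 to 1.54). Gata4 stood at 669 CPM (645 to 695; 2760 UMIs) in PrE-like cells, against 2.79 CPM (1.34 to 5.13; 10 UMIs) in TE-like cells, a log2 ratio of 7.47 (7.03 to 8.97). The pair thus separated PrE-like from TE-like cells to very different extents, with intervals of the ratios far apart. Both passed 2-fold upward in PrE-like cells, where the background share was 21.8%.

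The other PrE markers were compared in the same way. Across the 16 PrE markers at 100 CPM or more in blastocyst PrE-like cells, the TE-like level was a median of 0.479% of the PrE-like level. Gata4 was at 0.417% of its PrE-like level and Gata6 at 37.0%. Of the markers, 2 exceeded Gata6 in this measure, Dab2 at 80.0% and Lrp2 at 47.9%, an endocytic adaptor and the receptor megalin, and the next was Lamc1 at 2.94%. In EPI-like cells the markers had a median of 1.41% (0.0984 to 13.2), with Gata4 at 1.14% and Gata6 at 2.80%.

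**Figure D2:**
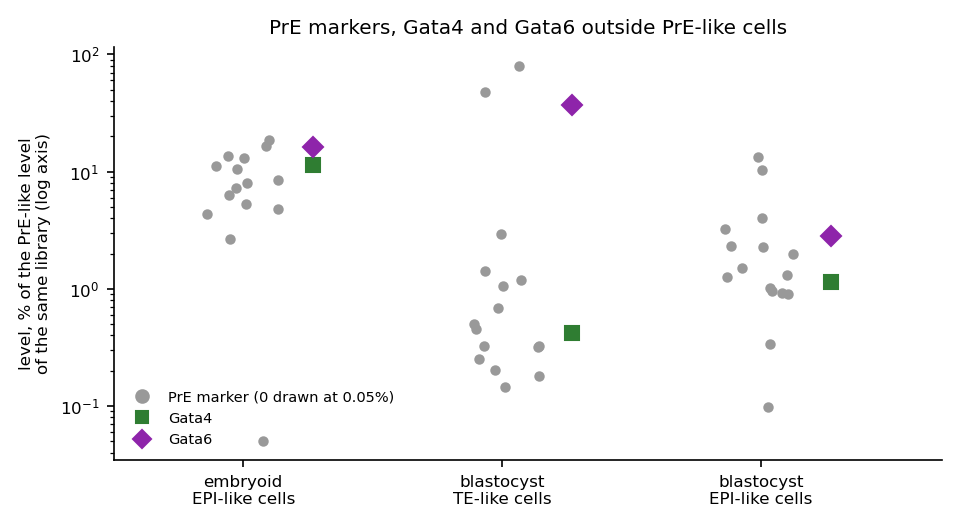
Level of PrE markers (grey), Gata4 (green square) and Gata6 (purple diamond) in embryoid EPI-like, blastocyst TE-like and blastocyst EPI-like cells, as a percentage of the level in PrE-like cells of the same library (logarithmic axis; a marker at 0 is drawn at 0.05%). In TE-like cells Gata6, at 37.0%, lay below Dab2 and Lrp2 and far above Gata4, at 0.417%.

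Within the trophectoderm the 3 GATA genes did not follow the same clusters. Gata6 was at 349 CPM (325 to 374) in cluster 1, led by Serpinb6b and Perp, at 151 CPM (125 to 181) in cluster 4, led by Ctsll3 and BC051665, and at 10.5 CPM (3.40 to 24.4; 5 UMIs) in cluster 6, led by Cald1 and Irx3 and holding Elf5 among its leading genes. Gata2 was instead highest in cluster 4, at 600.3 CPM (547 to 657), with 356 CPM (332 to 381) in cluster 1 and 157 CPM (124 to 197) in cluster 6. Gata3 took the same order as Gata2, with 1002 CPM (933 to 1075) in cluster 4, 667 CPM (634 to 701) in cluster 1 and 348 CPM (297 to 405) in cluster 6. No neighbours in these orders overlapped. The small cluster 6 (42 cells) therefore kept Gata2 and Gata3 at a fraction of the level elsewhere and had Gata6 at a level whose interval overlaps that of EPI-like cells (14.8 to 25.9). Detection at 3000 UMIs followed the levels, with Gata6 in a median of 58.4% of cluster 1 and 33.5% of cluster 4 cells, and in at most 5.41% of cluster 6 cells in any draw.

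**Figure D3:**
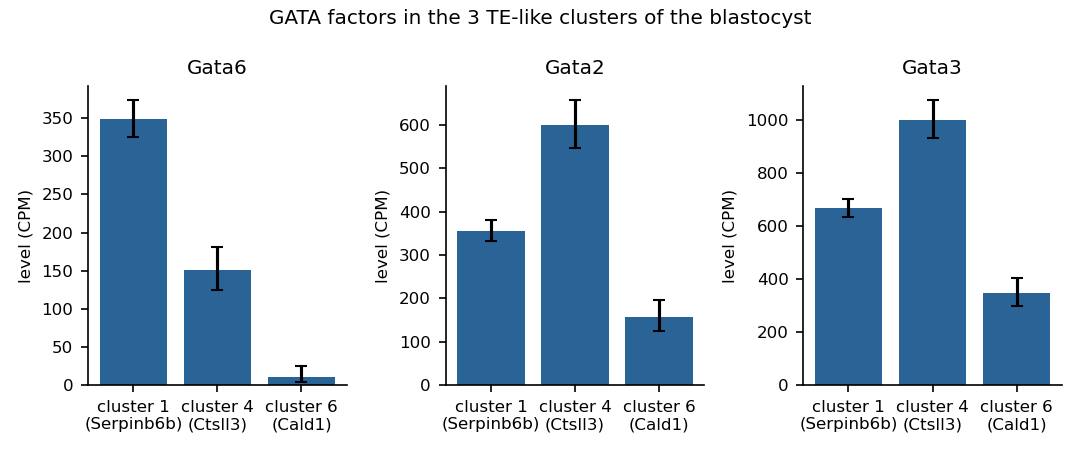
Level (CPM, linear axis from 0) of Gata6, Gata2 and Gata3 in the 3 TE-like clusters of the blastocyst, named by number and leading gene, with exact Poisson 95% intervals. Gata6 was highest in cluster 1, at 349 CPM, whereas Gata2 and Gata3 were highest in cluster 4, at 600.3 and 1002 CPM.

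The clusters are pieces of 1 library, and their leading genes were not tested. The median mitochondrial share was 12.3% in cluster 1, 11.3% in cluster 4 and 8.05% in cluster 6, so it moved with Gata6. Inside cluster 1, Gata6 was at 327 CPM (280 to 378) in the 58 cells with at most 10% mitochondrial UMIs and at 356 CPM (328 to 384) in the 192 cells above that, while inside cluster 4 it was at 69.0 CPM (42.7 to 105) in 27 cells and 203 CPM (165 to 248) in 57 cells. In cluster 6 the 5 UMIs are too few to compare the sides of the limit, with intervals of 2.85 to 26.8 CPM in 31 cells and 0.266 to 58.6 CPM in 11 cells. Taking only cells with at most 10% mitochondrial UMIs gave a Gata6 log2 ratio of PrE-like over TE-like cells of 2.12, and leaving out cluster 1 gave 2.84.

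TE-like cells with a Gata6 UMI at 3000 UMIs also held Dab2 and Lrp2 more often than those without. Dab2 was detected in a median of 92.7% of cells with Gata6 and 70.9% of cells without, and Lrp2 in 38.5% and 16.3%. They were the 2 of 75 partner and marker genes whose intervals did not overlap in 20 of 20 draws, and 20 genes were apart in at least 1 draw. Elf5 was detected less often with Gata6, in 28.5% against 47.8% of cells, with intervals apart in 16 of 20 draws. Inside cluster 1 none was apart in every draw, and Lrp2 was apart in 8 of 20. By cluster, Lrp2 was at 198 CPM in cluster 1, 17.9 CPM in cluster 4 and 6.28 CPM in cluster 6, and Dab2 at 1162, 1114 and 73.3 CPM. Gata6 was detected in 49.2% of TE-like cells with Gata3 and in 37.0% of those without, higher with Gata3 in 20 of 20 draws. By Gata2 the shares were 48.9% with and 43.2% without, higher in 17 of 20 draws. Inside cluster 1 Gata6 was detected in 60.6% of cells with Gata3 and 52.5% without, higher in 18 of 20 draws. By Gata2 the shares there were 60.8% and 55.2%, higher in 14 of 20 draws.

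In primitive endoderm of the blastocyst Gata4 and Gata6 were high in nearly every cell. Before thinning, 94.9% of PrE-like cells had a Gata4 UMI and 93.5% a Gata6 UMI, at a median of 9410 UMIs a cell. At 3000 UMIs Gata4 was detected in a median of 82.7% (79.8 to 86.8) and Gata6 in 82.9% (80.4 to 86.6). Both were detected in 67.7% of PrE-like cells in the first draw (62.7 to 72.5; 66.7 to 73.4 over the draws), and neither in a median of 3.36%. Gata6 was found in 83.5% of cells with Gata4 and 80.2% of those without, higher with Gata4 in 16 of 20 draws, so the 2 genes were found together about as often as their separate shares give. The PrE-like clusters differed little: Gata4 was at 704 CPM (674 to 735) in cluster 0 and 590 CPM (548 to 634) in the Spink3 and Cubn cluster 3, and Gata6 at 731 CPM (700.1 to 763) and 646 CPM (602 to 692). Of 75 partner and marker genes, 0 were apart in every draw between cells with and without either gene, and 9 were apart in at least 1 draw for Gata6 and 4 for Gata4. Many cells without a UMI at 3000 UMIs had 1 or more before thinning, and few cells were without. Such a split can hardly show a gene apart, so no conclusion is drawn from it.

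Epiblast-like cells of the blastocyst were low in both. Gata4 was at 7.61 CPM (4.65 to 11.8; 20 UMIs) and Gata6 at 19.8 CPM (14.8 to 25.9; 52 UMIs), which gave log2 ratios of PrE-like over EPI-like cells of 6.28 (5.83 to 7.17) and 5.09 (4.76 to 5.58). Of the 3 GATA genes at 10 CPM or more in either profile, Gata4 and Gata6 passed 2-fold upward in PrE-like cells and Gata2 downward (log2 ratio -1.87, -3.56 to -1.16), beside 14.3% and 10.9% of 8807 genes. The Gata6 RNA was not spread evenly over the cells. In the cluster led by Prdm14, Ifitm1 and Nanog, 3 cells with 18, 8 and 4 Gata6 UMIs held 30 of the 52. Those cells had 0 UMIs of Gata4, Sox17 and Pdgfra, but the PrE marker Col4a1 had 8, 1 and 0 UMIs in them, in that order. Each had UMIs of Nanog and Sox2, the pluripotency factors, and 0 of the EPI marker Fgf4. They were picked after their values were seen. Outside them Gata6 in EPI-like cells was at 8.46 CPM (22 UMIs), close to Gata4 in number of UMIs. By cluster, Gata6 was at 30.8 CPM (22.8 to 40.7) in the Prdm14 and Nanog cluster and at 2.89 CPM (0.596 to 8.45; 3 UMIs) in the cluster led by Lef1 with Otx2, a factor of the later epiblast. Gata3 ran the other way, at 5.66 CPM (2.59 to 10.7) and 14.4 CPM (8.09 to 23.8), with overlapping intervals.

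Embryoid PrE-like cells held Gata4 close to the blastocyst level and much less Gata6. Gata4 was at 565 CPM (555 to 575; 12295 UMIs) in embryoid PrE-like cells, against 669 CPM in blastocyst PrE-like cells, a log2 ratio of -0.24 (-0.30 to -0.18). Gata6 was at 156 CPM (150.4 to 161; 3388 UMIs), against 705 CPM, a log2 ratio of -2.17 (-2.25 to -2.11). Gata6 thus made up 21.6% of the Gata4 and Gata6 UMIs in embryoid PrE-like cells (21.0 to 22.3), against 51.3% in blastocyst PrE-like cells (50.0 to 52.6). The share is free of the scaling of the libraries. The shift was present in all 7 embryoid PrE-like clusters, where the share ran between 17.2% and 30.9%, while the 2 blastocyst PrE-like clusters were at 50.9% and 52.3%. Of the 3 GATA genes at 10 CPM or more in either profile, Gata2 passed 2-fold upward, Gata6 downward and Gata4 neither in embryoid against blastocyst PrE-like cells, beside 17.7% and 12% of 9201 genes.

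**Figure D4:**
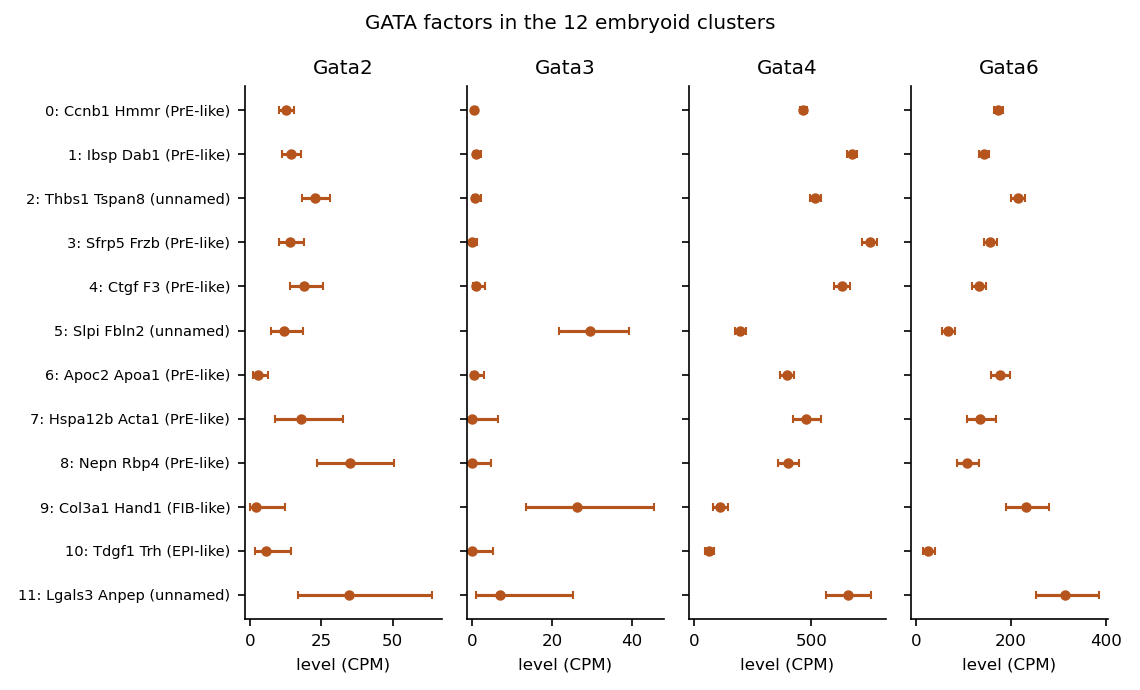
Level (CPM, linear axes that differ between panels) of the 4 GATA genes in the 12 embryoid clusters, which are named by number, leading genes and class, with exact Poisson 95% intervals. Gata3 was above 20 CPM only in clusters 5 and 9, Gata4 was lowest in clusters 5, 9 and 10, and Gata6 was at 231 CPM in the FIB-like cluster 9.

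Fewer embryoid than blastocyst PrE-like cells showed Gata6. At 3000 UMIs, with 692 of 3880 embryoid and 75 of 447 blastocyst PrE-like cells left out, Gata4 was detected in 78.6% of embryoid PrE-like cells (77.9 to 79.7 over the draws), against 82.7% of blastocyst PrE-like cells. Gata6 was detected in 33.3% of embryoid PrE-like cells (32.5 to 34.6), against 82.9% of blastocyst PrE-like cells. Unthinned, the shares in embryoid PrE-like cells were 89.5% for Gata4 and 47.0% for Gata6 at a median of 4984.5 UMIs a cell. Both genes were detected in 26.9% of embryoid PrE-like cells in the first draw (25.4 to 28.5; 26.1 to 28.1 over the draws), against 67.7% of blastocyst PrE-like cells, and neither in 14.4%, against 3.36%. Gata6 was found in 33.6% of embryoid PrE-like cells with Gata4 and 31.2% of those without, higher with Gata4 in 18 of 20 draws. Gata4 was detected in 78.4% of the embryoid PrE-like cells without a Gata6 UMI.

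**Figure D5:**
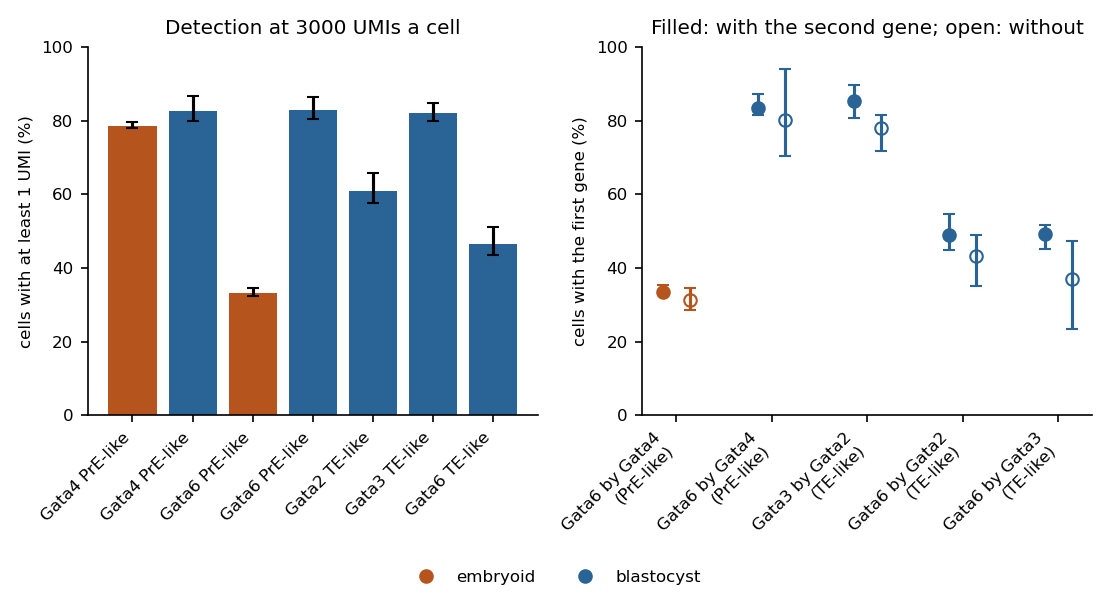
Left, share of cells with at least 1 UMI of a gene after thinning to 3000 UMIs a cell; right, share of cells with the first-named gene among cells with (filled) and without (open) the second. Bars and points are medians and error bars the range over 20 thinning draws, orange for embryoid and blue for blastocyst; Gata6 was in 33.3% of embryoid PrE-like cells, against 82.9% of blastocyst PrE-like cells.

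The embryoid PrE-like clusters differed in both Gata4 and Gata6. Among them Gata4 was lowest, at 395 CPM (367 to 425), in the cluster led by the apolipoproteins Apoc2 and Apoa1, with Cubn. It was highest, at 749 CPM (718 to 780), in the cluster led by the Wnt antagonists Sfrp5 and Frzb. That was the highest cluster level of either library, next above blastocyst cluster 0 (704 CPM, 674 to 735). The log2 ratio interval of 0.00194 to 0.176 put them narrowly apart beyond counting error, although their single intervals overlapped. The clusters led by Ibsp and Dab1 and by Ctgf and F3 had 672 and 630 CPM, and the cycling cluster led by Ccnb1 had 466 CPM. Gata6 lay between 108 CPM (86.0 to 133) in the Nepn and Rbp4 cluster and 177 CPM (158 to 197) in the Apoc2 and Apoa1 cluster, where its share of the pair was highest. In the order of Gata6 levels the intervals of neighbouring embryoid PrE-like clusters overlapped. PrE-like cells with a Gata4 UMI more often held the basement membrane laminin chains: Lama1 in 69.6% against 55.2% of cells without, Lamb1 in 93.3% against 85.6% and Lamc1 in 84.3% against 73.3%. Those 3 were the genes of 75 apart in 20 of 20 draws by Gata4, with 0 by Gata6 and 0 by Gata2. Dab2, Cubn and Amn were detected less often with Gata4, with intervals apart in 19, 18 and 16 of 20 draws. Lmo4 was detected more often with Gata4, in 41.2% against 33.8% of cells, apart in 16 of 20 draws. The clusters differ in both: in the first draw Lama1 and Lamb1 were apart inside cluster 0, with Lrp2, and 0 genes were apart inside clusters 1, 3, 4, 6 and 8.

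Gata2 was low in embryoid PrE-like cells but above its blastocyst PrE-like level. It was at 14.0 CPM (12.4 to 15.6; 304 UMIs) in embryoid PrE-like cells, against 2.18 CPM (9 UMIs) in blastocyst PrE-like cells, a log2 ratio of 2.23 (1.73 to 3.82). Against the 383 CPM of blastocyst TE-like cells its log2 ratio was -4.68 (-4.96 to -4.60). At 3000 UMIs it was detected in 3.78% of embryoid PrE-like cells (3.36 to 4.08), against 0.403% of blastocyst PrE-like cells, and unthinned in 5.77%, at up to 5 UMIs in a cell. Its cluster levels ran from 2.71 CPM (0.881 to 6.33) in the Apoc2 and Apoa1 cluster to 35.0 CPM (23.3 to 50.6) in the Nepn and Rbp4 cluster, beyond counting error. In embryoid EPI-like cells Gata2 was at 5.60 CPM (1.53 to 14.3; 4 UMIs).

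Gata3 was at the limit of detection in embryoid PrE-like cells. There were 12 UMIs in 3880 cells, 0.551 CPM (0.285 to 0.963), at most 1 in a cell, against 6.55 CPM in blastocyst PrE-like and 698 CPM in blastocyst TE-like cells. With single cells named by markers in place of clusters, embryoid PrE-like cells held 44 Gata3 UMIs, and the ratio over TE-like cells was then -8.05 (count ratio -9.20 to -8.31). By clusters, the log2 ratio was -2.28 over blastocyst PrE-like cells (count ratio -4.69 to -2.54) and -8.81 over TE-like cells (-11.26 to -9.50). Gata4 passed 2-fold upward and Gata2 and Gata3 downward in embryoid PrE-like against blastocyst TE-like cells, beside 30.8% and 12.7% of 9227 genes, and Gata6 had a log2 ratio of -0.74 (-0.85 to -0.64). The unnamed cluster 2 was led by Thbs1, with the trophectoderm markers Tspan8 and Cldn4 among its leading genes. Its markers as a whole were those of PrE-like cells. There, 17 of 17 PrE and 6 of 17 TE markers reached 20 CPM, summed at 19414.5 and 1153 CPM. In embryoid PrE-like cells the sums were 19757 and 987 CPM. Cluster 2 had its Gata6 above every embryoid PrE-like cluster and its other GATA genes within their range. Gata4 was at 517 CPM (495 to 540), Gata6 at 214 CPM (200 to 229), Gata2 at 22.7 CPM (18.3 to 27.9) and Gata3 at 0.748 CPM (3 UMIs).

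Most Gata3 RNA of the embryoid came from a pair of clusters with FIB markers, both of which also held PrE markers. Of its 76 UMIs, 47 came from the 329 cells of cluster 5, led by Slpi, Fbln2 and Vim, and 12 from the FIB-like cells of cluster 9, led by Col3a1 and Hand1. The levels were 29.5 CPM (21.7 to 39.3) in cluster 5 and 26.1 CPM (13.5 to 45.6) in FIB-like cells, which overlap, and Gata3 was counted in 36 and 11 cells. Of 11 FIB markers, 7 reached 20 CPM in cluster 5, 11 in FIB-like cells and 0 in embryoid PrE-like cells. Of 17 PrE markers, 11 reached it in cluster 5, 12 in FIB-like cells and 17 in embryoid PrE-like cells. Summed over the class, PrE markers were at 5352 CPM and FIB markers at 962 CPM in cluster 5, and at 5258 and 3495 CPM in FIB-like cells. In FIB-like cells Gata6 was at 231 CPM (189 to 279; 106 UMIs), against 156 CPM in embryoid PrE-like cells, a log2 ratio of 0.56 (0.27 to 0.85), and Gata4 at 109 CPM (80.8 to 143; 50 UMIs), against 565 CPM, a log2 ratio of -2.37 (-2.81 to -1.98). Gata6 made up 67.9% of the pair in FIB-like cells (60.0 to 75.2), against 21.6% in embryoid PrE-like cells, whereas cluster 5 was at 25.4% (21.3 to 29.8). The 15 PrE markers at 100 CPM or more were in FIB-like cells at a median of 18.8% of their embryoid PrE-like level, with Gata4 at 19.3% and Gata6 at 148%. Gata3 passed 2-fold upward (log2 ratio 4.13, 4.28 to 6.85) and Gata4 and Gata2 downward in FIB-like against PrE-like cells, beside 15.6% and 12.2% of 9837 genes. Gata2 had only 1 UMI in FIB-like cells, 2.18 CPM (0.0551 to 12.1), below the 6.53 CPM that 3 UMIs give there. In the list of GATA family members and cofactors, 4 of 10 measured genes were higher and 1 lower, with a median log2 ratio of 0.47, against 0.07 over all genes. The higher ones were Tbx20 (54.4 against 0.276 CPM) and Mef2c (13.1 against 0.184 CPM), factors of heart mesoderm, Trps1 (58.8 against 1.61 CPM), an atypical GATA repressor, and Lmo2 (15.2 against 0.413 CPM), an adaptor of GATA complexes in blood. At that depth the levels of Mef2c and Lmo2 in FIB-like cells rest on few UMIs.

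Embryoid EPI-like cells held more Gata4 than blastocyst EPI-like cells. Gata4 was at 64.4 CPM (47.1 to 85.9; 46 UMIs) in embryoid EPI-like cells, against 7.61 CPM in blastocyst EPI-like cells, a log2 ratio of 2.92 (2.29 to 3.92), and Gata6 was at 25.2 CPM (14.9 to 39.8; 18 UMIs), against 19.8 CPM, with overlapping intervals (log2 ratio 0.33, -0.51 to 1.15). Gata3 had 0 UMIs, which allows up to 4.20 CPM at a floor of 3 UMIs. Of the GATA genes at 10 CPM or more in either profile, Gata4 alone passed 2-fold, upward, beside 14.5% and 10.2% of 8928 genes. The PrE markers were present as well: 15 of them were in embryoid EPI-like cells at a median of 7.96% of the embryoid PrE-like level (0 to 18.6), with Gata4 at 11.4% and Gata6 at 16.2%. Gata6 made up 28.1% of the pair there (17.6 to 40.8), an interval that holds the 21.6% of embryoid PrE-like cells, and 3 cells with 5 or 6 Gata4 UMIs held 17 of the 46. Those 3 cells had 10, 28 and 16 UMIs of the PrE marker Col4a1 and 7, 1 and 1 of Sox17. They had 0 UMIs of the EPI markers Nanog and Fgf4, with 0, 1 and 3 of Sox2 and 2 each of Klf2. Without those 3 cells, picked after their values were seen, Gata4 was at 42.5 CPM. The part of RNA from other cells, or of barcodes with 2 cells, in these levels was not tested. Over embryoid EPI-like cells, embryoid PrE-like cells had a Gata4 log2 ratio of 3.11 (2.72 to 3.58) and a Gata6 ratio of 2.58 (1.96 to 3.38), with Gata2 at 1.18 (-0.05 to 3.20). All 3 passed 2-fold upward, beside 20.9% of 9323 genes upward and 13.3% downward.

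Ordered over the 7 classes of both libraries, Gata4 came in the order blastocyst PrE-like, embryoid PrE-like, embryoid unnamed (437 CPM), FIB-like, embryoid EPI-like, blastocyst EPI-like and TE-like cells, with every neighbour apart beyond counting error. For Gata6, blastocyst PrE-like cells came first, TE-like and FIB-like cells next with overlapping intervals, then embryoid unnamed (179 CPM) and embryoid PrE-like cells, and last both EPI-like classes, which were not apart. For Gata2, TE-like cells were followed by embryoid unnamed (20.4 CPM) and embryoid PrE-like cells, and from there down no neighbours were apart. For Gata3, TE-like cells were followed by FIB-like cells, then by blastocyst EPI-like, embryoid unnamed (8.83 CPM) and blastocyst PrE-like cells, not apart from one another, with embryoid PrE-like and EPI-like cells at the bottom. The remaining family members were scarce. Gata1 had 9 UMIs in the embryoid and 29 in the blastocyst library, and Gata5, an endoderm and heart factor, 34 and 2.

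Of 6 measured genes of the GATA family and cofactor list, 0 were 2-fold apart between TE-like and PrE-like cells. Over all genes 11.7% were higher and 21.8% lower in TE-like cells. The median log2 ratio of the list was -0.28, against -0.38 over all genes. Zfpm1, which encodes the GATA partner FOG1, was at 24.0 CPM in TE-like and 38.6 CPM in PrE-like cells, and at 4.57 CPM in EPI-like cells. Against EPI-like cells, 1 of 7 measured list genes passed 2-fold upward and 1 downward in TE-like cells, beside 15.2% and 23.9% of 8795 genes. In PrE-like cells 1 of 8 passed upward (Zfpm1) and 1 downward (Trps1), beside 14.3% and 10.9% of 8807 genes. Lmo4, a LIM adaptor, was at 219 CPM in embryoid PrE-like cells, against 80.8 CPM in blastocyst PrE-like cells (log2 ratio 1.43, 1.28 to 1.61). It was the 1 higher gene of 7 measured there, and Tbx20, at 0.276 against 11.4 CPM, the 1 lower gene. The list median was 0.28, against 0.06 over all genes, of which 17.7% were higher and 12% lower.

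Factors and targets tied to each pair in earlier work were counted by list, beside 11.7% of all genes upward and 21.8% downward in TE-like against PrE-like cells. Several of them are markers that named the clusters, so their lineage is partly built in, and they were chosen with earlier results of these data known. Of 8 measured genes reported as targets of Gata2 or Gata3, 8 passed 2-fold upward in TE-like against PrE-like cells, with a median log2 ratio of 6.73; Cldn4 (960.5 against 1.94 CPM) and Krt18 (2161 against 7.76 CPM), genes of epithelia, had the highest ratios, and Plac1, Wnt6 and Fabp3 the lowest (1.91, 2.28 and 2.54). Of 14 trophoblast partner factors, 9 were higher and 3 lower (median 2.25), with Cdx2, Elf5 and Tfap2c highest and Esrrb, Sox2 and Msx2 lowest. Of 12 reported targets of Gata4 or Gata6, 10 passed 2-fold downward in TE-like cells and 0 upward (median -6.12). Col4a1, Col4a2 and Pdgfra, matrix and receptor genes of endoderm, were lowest at -8.10, -7.82 and -7.82. Dab2 (-0.32) and Fgfr2 (0.68), a receptor for FGF4, were the 2 within 2-fold, and both were well expressed in TE-like cells, at 1007 and 317 CPM. Of 11 endoderm partner factors, 6 were lower and 3 higher (median -4.51): Foxq1 and Sox17 were among the lowest, and Nr5a2, Eomes and Nr2f2 highest.

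The same lists were counted in embryoid against blastocyst PrE-like cells, where 17.7% of all genes passed 2-fold upward and 12% downward. Of 16 measured reported targets of Gata4 or Gata6, 7 passed upward and 2 downward (median log2 ratio 0.44, against 0.06 over all genes). Rbp4 and Ttr, carriers of vitamin A and thyroid hormone made by visceral endoderm, and Ihh, a hedgehog ligand, were highest, at 348 against 0.243 CPM (1 UMI in the blastocyst), 328 against 1.70 CPM and 113 against 6.31 CPM. Fgfr2 (33.7 against 197 CPM), the endoderm factor Sox7 (51.0 against 111 CPM) and Lama1 (556 against 984 CPM) were lowest. Of 10 endoderm partner factors, 2 were higher and 4 lower (median -0.73): Klf5 was lowest at 49.5 against 446 CPM, followed by Eomes (12.4 against 58.9 CPM) and Foxq1 (567 against 1273 CPM), while Nr2f2 and Hnf4a were higher and Foxa2 was at 114 against 112 CPM. Of 8 trophoblast partner factors, 2 were higher, Arid3a and Ets2, and 5 lower (median -1.83), among them Esrrb (1 UMI in the embryoid), Sox2 and Klf5. Of 6 reported targets of Gata2 or Gata3, the keratins Krt18 (487 against 7.76 CPM) and Krt8 (128 against 3.64 CPM) and Cldn4 (27.3 against 1.94 CPM) were higher, Wnt6 and Plac1 lower and Fabp3 at 249 against 257 CPM (median 1.61).

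The genes most like each GATA gene were sought over 15 cell groups, the 12 embryoid clusters and 3 blastocyst classes, among 9877 genes, by Pearson correlation of log2 levels. The groups of 1 library share its depth and free RNA, and the correlations are descriptions. Gata4 had the closest companions, Col4a1 (0.99), Flrt3 (0.99), Col4a2 (0.99), Sox17 (0.98) and Lamb1 (0.98). All of these but Flrt3 are PrE markers that named the clusters, so their closeness is partly built in. Gata3 was closest to Litaf (0.92), Vgll3 (0.91), Btbd1 (0.91), Wnt6 (0.91) and Gm15446 (0.90). Gata2 was closest to Myo1e (0.91), Anxa9 (0.90), Ndfip1 (0.90), Cap1 (0.85) and Atg16l2 (0.84). All of them were highest in blastocyst TE-like cells, a single group here, which weighs heavily on these values. Wnt6 is also a TE marker. Gata6 was closest to Alg5 (0.91), Rab3il1 (0.89), BC003331 (0.89), Efna4 (0.88) and Slc7a6 (0.88). Among the 4 genes the correlations were 0.43 for Gata2 with Gata3, 0.42 for Gata4 with Gata6, 0.19 for Gata3 with Gata6, 0.07 for Gata2 with Gata6, -0.38 for Gata2 with Gata4 and -0.70 for Gata3 with Gata4.

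In the mouse annotation of the files' build, mm10, Gata2 lies at chr6:88193891-88207032 on the plus strand, Gata3 at chr2:9857078-9890034 and Gata4 at chr14:63198922-63271692 on the minus strand, and Gata6 on chromosome 18. Whether counting used strand is not given in the sources used here. Gata3 overlaps the antisense genes Gm13256 and 4930412O13Rik, which had 0 UMIs each in the embryoid and 4 and 1 in the blastocyst, and the same-strand gene 9230102O04Rik, which has no row in either file, and Gata6 overlaps the antisense gene 1010001N08Rik, with 89 UMIs in the embryoid and 76 in the blastocyst, beside 4565 and 3895 of Gata6. How transcripts of the Gata6 reporter allele of XTE cells were counted is not given either.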

How the data were processed

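The deposited files hold raw UMI counts per gene symbol and cell barcode, made by the authors with STAR 2.7.1a on mm10, featureCounts 1.6.4 (Subread), UMI-tools 1.0.1 and bcl2fastq 2.19.1.403, per the submitters' processing notes. Neither the annotation nor the cell calling rule is named in those notes. The 4 genes, the lists and the tests were chosen with earlier results of these data known.

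Barcodes were kept with at least 1000 UMIs, 500 genes and at most 25% mitochondrial UMIs, and Scrublet doublets (scanpy 1.11.5) were removed. The embryoid file held 28923930 UMIs in 5546 barcodes and the blastocyst file 11047555 in 1288. Each library was clustered on 2000 variable genes without Gata, ribosomal or mitochondrial genes (30 components, 20 neighbours, leidenalg 0.10.2 at resolution 1, seed 1; Python 3.11.15, scipy 1.17.1). Of 103 markers in 9 classes 97 matched. A marker was high at 20 CPM and 33.3% of its highest cluster level. Clusters were named for the class whose markers were high in the greatest proportion, given 3 or more of them and 50% of those measured. The 50% limit was set after values were seen and keeps embryoid cluster 5 (6.17% of that library) out of the FIB-like class, which holds 2.08%. It stayed unnamed if its 10 leading genes held more markers of another class, or with a mitochondrial median under 10% of the library's (embryoid cluster 11, 84 cells). One embryoid PrE-like cluster, led by Hspa12b, was shallow, with a median of 2175 UMIs.

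UMIs were summed per class or cluster and scaled to CPM, with exact Poisson intervals; shares have exact Clopper-Pearson intervals. Log2 ratios add 1 CPM, and a gene counts as measured at 10 CPM in either profile. Cells were thinned to 3000 UMIs in 20 seeded draws. The thinning and ratio steps were tested on simulated data. The 5 lists hold 73 genes, of which 71 matched: GATA family and cofactors, endoderm partner factors, trophoblast partner factors, and reported targets of Gata4 or Gata6 and of Gata2 or Gata3. In each list the 3 highest and 3 lowest ratios are named, apart from items not reported here, and for each GATA gene the 5 genes most alike at 20 CPM or more in any group. Splits of the cells of a class by a GATA gene name the genes apart in every draw and those apart in 16 or more of 20 draws, a rule set after values were seen. Inside single clusters, genes apart in fewer draws or in the first draw are also named. Alternatives covered scaling, added CPM, filters, doublets, resolution, single-cell naming, thinning depth and clusters left out.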

Additional observations from a re-analysis of the deposited data

How the results depend on the processing

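With 1 library per group there is no replicate check, and depth limits Gata3 in the embryoid and Gata4 in trophectoderm, each at few UMIs. No paired analysis was possible because each group holds 1 library. Over 170 values under alternatives, 0 changed direction. Of them, 145 stayed within the counting error once its interval was moved to the ratio with the CPM added (21 of these lie outside the interval printed for the counts alone), and the other 25 follow. With 10 CPM added, the log2 ratios of TE-like over PrE-like cells were 5.01 (Gata2) and 5.42 (Gata3), of PrE-like over TE-like cells 5.73 (Gata4), of PrE-like over EPI-like cells 4.59 (Gata6), of embryoid over blastocyst PrE-like cells 0.98 (Gata2) and of embryoid PrE-like over TE-like cells -4.03 (Gata2) and -6.07 (Gata3), by construction of the added CPM. The Gata6 ratio of PrE-like over TE-like cells was 1.15 with median-of-ratios scaling, 2.12 with at most 10% mitochondrial UMIs, and 2.84, 1.27 and 1.23 without TE-like cluster 1, 4 and 6. The Gata2 ratio of embryoid PrE-like over TE-like cells was -4.89 with that scaling and -4.43 without cluster 4. The Gata6 ratio of embryoid over blastocyst PrE-like cells was -2.09 at resolution 0.6 and -2.09 with the Thbs1 and Tspan8 cluster as PrE-like. Without the top 10% of cells by UMIs, Gata6 in PrE-like over EPI-like cells was 5.58 and Gata4 in embryoid over blastocyst PrE-like cells -0.16. Co-detection at 2000 and 5000 UMIs was 16.6% and 42.7% (Gata4 with Gata6, embryoid PrE-like), 49.1% and 84.8% (the same, blastocyst PrE-like) and 36.3% and 73.2% (Gata2 with Gata3, TE-like), and 48.9% for the last without cluster 4 at 3000 UMIs. Within that limit, Gata4 of PrE-like over TE-like cells was 6.84 with doublets kept (17 UMIs in TE-like cells), and Gata3 of embryoid PrE-like over TE-like cells -8.05 with single cells named by markers (44 UMIs in embryoid PrE-like cells). The alternatives that leave out a cluster, count the Thbs1 cluster as PrE-like or let Gata genes into the clustering were added after seeing the data. Where no construction is named, the cause was not tested.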

Other observations

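The embryoid barcodes nearly without mitochondrial RNA (cluster 11, 84 cells, median mitochondrial share 0.184%, led by Lgals3 and Anpep) had the highest Gata6 level of the embryoid clusters, at 313 CPM (252 to 385), with Gata4 at 654 CPM (564 to 755) and Gata2 at 34.8 CPM (16.7 to 64.0; 10 UMIs). Gata6 made up 32.4% of the Gata4 and Gata6 UMIs there (26.9 to 38.2).

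Gata2 and Gata3 shared their UMIs in different proportions across groups. Gata2 made up 96.2% of the pair in embryoid PrE-like cells (93.5 to 98.0), 28.8% in embryoid cluster 5 (18.3 to 41.3), 35.4% in blastocyst TE-like cells (33.9 to 37.0) and 25% in blastocyst PrE-like cells (12.1 to 42.2). Within the TE-like clusters it was 34.8%, 37.5% and 31.1% (clusters 1, 4 and 6), with overlapping intervals. In blastocyst EPI-like cells Gata2 made up 72.7% in the Prdm14 cluster (54.5 to 86.7) and 21.1% in the Lef1 cluster (6.05 to 45.6).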
